A study of Mus musculus with 39 samples.

Results

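The comparison described here is the difference between 2 responses to lipopolysaccharide (LPS) in mouse microglia, that of mice carrying the prenatal term MIA (maternal immune activation) and that of mice carrying the prenatal term CON, in mice whose arm term is CON in both cases. The prenatal and arm terms are joined below by a colon, so that MIA:CON and CON:CON differ only in the prenatal term. The rule takes 18 of the 39 libraries of the series, namely 6 of MIA_CON_LPS, 4 of MIA_CON_SAL, 4 of CON_CON_LPS and 4 of CON_CON_SAL. CON_CON_LPS replicate 3, whose title marks it for exclusion, is left out. Results of the tests, the median differences of most lists and many genes are given with and without MIA_CON_LPS replicate 6. Counts of list members called for LPS are mostly given from all 18 libraries only. Unless another set is named, values are from all 18 libraries. None of the 18 libraries carries PLX, the other arm term of the series, whose meaning is not stated in the labels.

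All mice were males of 8 to 10 weeks. LPS or saline was injected into the peritoneum, with LPS at 4500 endotoxin units per gram of body weight, and microglia were collected from the striatum 18 hours later. Live cells were sorted as CD11b+, CD45-low and P2RY12+, so the cells that enter a library are those that still carried P2RY12 protein. The labels do not say how the maternal immune system was activated, which strain was used, or whether replicates are separate animals, and the tests therefore see only how far these libraries spread, which may be technical. The series title names a blunted reactivity of microglia after prenatal immune stress, and the question addressed by this comparison is whether the LPS response of MIA:CON microglia differs in size or in kind from that of CON:CON microglia.

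LPS is a cell wall component of Gram-negative bacteria that is sensed by Toll-like receptor 4 with its partners CD14 and MD-2. One branch of its signalling activates NF-kB and switches on cytokine and chemokine genes, and another induces type I interferon, which acts through its receptor on a large set of interferon-stimulated genes. Microglia, the resident macrophages of the brain, answer systemic LPS with both programmes and at the same time lower genes of their resting, homeostatic state, such as the purinergic receptor gene P2ry12.

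Promoters of 3 genes are shown because they stand for the response programmes measured below: Cxcl10, an interferon-inducible chemokine gene, Saa3, an acute-phase serum amyloid gene, and P2ry12, a homeostatic gene that is also used in the sort gate. Each runs 5′ to 3′ from 250 bases before to 50 bases after the gene start (RefSeq, build GRCm38.p6), and capitals mark matches on either strand to the interferon response element core (GAAA, any 2 bases, GAAA) or the kB core (GGGA, any base, TT, any base, CC).
Cxcl10 promoter, chr5:92348840-92349139, minus strand: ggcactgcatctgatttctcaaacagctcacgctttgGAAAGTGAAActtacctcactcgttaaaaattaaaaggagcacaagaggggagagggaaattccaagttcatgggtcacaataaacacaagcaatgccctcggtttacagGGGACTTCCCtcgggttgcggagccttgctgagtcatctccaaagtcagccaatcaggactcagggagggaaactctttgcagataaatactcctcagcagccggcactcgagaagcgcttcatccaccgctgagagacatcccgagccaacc
Saa3 promoter, chr7:46715627-46715926, minus strand: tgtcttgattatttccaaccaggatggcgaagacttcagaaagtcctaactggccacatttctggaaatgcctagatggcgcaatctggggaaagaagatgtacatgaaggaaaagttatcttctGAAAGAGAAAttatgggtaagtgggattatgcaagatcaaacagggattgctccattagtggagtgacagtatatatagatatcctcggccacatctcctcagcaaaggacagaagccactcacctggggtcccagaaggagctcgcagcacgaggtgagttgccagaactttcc
P2ry12 promoter, chr3:59262936-59263235, minus strand: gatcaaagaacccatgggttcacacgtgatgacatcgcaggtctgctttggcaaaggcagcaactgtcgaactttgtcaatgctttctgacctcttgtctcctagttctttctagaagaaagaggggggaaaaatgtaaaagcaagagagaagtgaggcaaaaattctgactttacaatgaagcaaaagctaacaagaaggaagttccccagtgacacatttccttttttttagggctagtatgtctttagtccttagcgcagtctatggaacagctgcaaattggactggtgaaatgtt
The Cxcl10 window holds 1 match to each core, the Saa3 window 1 match to the interferon core and the P2ry12 window none. Among all 32851 promoters of that table, 3.44% hold the interferon core and 1.2% the kB core. Of 27 interferon-stimulated genes of the list used below that have a promoter in the table, 18 hold the interferon core, against 0 of 12 homeostatic microglia genes. A match is a description of letters and not evidence of a binding site.

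The 18 libraries held 1837851 to 4834531 estimated counts, with means of 2942002 ± 892515 in MIA_CON_LPS (SD, n = 6), 3019419 ± 792863 in MIA_CON_SAL, 3750414 ± 791713 in CON_CON_LPS and 3281634 ± 546189 in CON_CON_SAL (SD, n = 4 each). Mitochondrial ribosomal RNA took 16.9% ± 2.14 of counts in MIA_CON_LPS (SD, n = 6), 12.5% ± 0.436 in MIA_CON_SAL, 12.6% ± 4.75 in CON_CON_LPS and 11.1% ± 1.37 in CON_CON_SAL (SD, n = 4 each). Its part in the results was not tested. MIA_CON_LPS replicate 6 stood apart from its group. Its counts differed from those of MIA_PLX_SAL replicate 1, a library marked for exclusion by its title, by a chi-square per degree of freedom of 1.53 over 11605 genes, the lowest of all 741 pairs of libraries. The next lowest pair had 2.42, and the next nearest library to replicate 6, MIA_CON_SAL replicate 2, had 8.94. The identity of replicate 6 is therefore in doubt, as is every value given below for all 18 libraries, and whether RNA or a library was shared or exchanged was not tested. The microglial gene Sall1, a transcription factor gene, was expressed throughout, at up to 724 CPM (counts per library, scaled to the same total) after LPS and 979 CPM after saline.

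No gene passed the test for a difference between the LPS effects of MIA:CON and CON:CON. By edgeR's quasi-likelihood test with Benjamini-Hochberg adjustment (adjusted p under 0.05, two-sided), 0 of 13420 genes had a larger log2 change in MIA:CON and 0 a smaller one (background 0% in each direction), and the smallest adjusted p was 1. At an unadjusted p under 0.05 there were 415 genes, 207 above 0 and 208 below 0, which is 3.09% of those tested. Without MIA_CON_LPS replicate 6, 0 of 13356 genes passed (0% in each direction), 500 genes or 3.74% were under an unadjusted p of 0.05, and the smallest adjusted p was 0.642. DESeq2 also called 0 genes, with 493 at an unadjusted p under 0.05, and limma voom with quality weights called 0, with 448. The difference of LPS effects is written below as a log2 value, MIA:CON minus CON:CON.

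Both arms responded to LPS. In MIA:CON, 1941 genes were higher after LPS (14.5% of those tested) and 1462 lower (10.9%) by edgeR. In CON:CON, 1841 were higher (13.7%) and 1321 lower (9.84%). MIA:CON had 6 LPS libraries and CON:CON 4, and the median standard error of the LPS change was 0.315 and 0.338. Counts of calls in the 2 arms, here and in the lists below, therefore differ in power. Without MIA_CON_LPS replicate 6, MIA:CON had 2274 higher (17%) and 1932 lower (14.5%), and CON:CON, in the same fit, 1875 (14%) and 1379 (10.3%). These 2 contrasts share no libraries. With all 18 libraries they had 1304 higher and 916 lower genes in common, which is 65.2% of the MIA:CON calls and 70.3% of the CON:CON calls, and 0 genes were called in opposite directions. Without replicate 6 they shared 1431 higher and 1068 lower genes (59.5% and 76.8%). In that fit 1 gene, Hypk, was called in opposite directions. With all 18 libraries, a further 1183 genes were called in MIA:CON alone and 938 in CON:CON alone. Of these, 77 and 133 had an unadjusted p under 0.05 for the difference of effects itself, with 0 past the adjusted threshold. Without replicate 6 the numbers were 1705 and 754, of which 183 and 101 had such a p. Over all genes tested 3.09% had such a p, and 3.74% without replicate 6. Calls in 1 arm alone favour genes that differ between arms, so these counts are no test.

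The precision of the comparison was limited. Over 2711 genes called for LPS in either arm, with a mean of at least 4 log2 CPM and an interval, the 95% interval of the difference of effects reached a median of 0.70 to either side on the log2 scale (quartiles 0.56 and 0.90). For 81.7% of them it reached less than 1 to either side, so a difference 2-fold from the estimate lies outside it. A p that misses the threshold does not show that the 2 responses were alike.

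A single measure of response size was taken from genes chosen in other libraries. In the PLX libraries, 1557 genes responded to LPS in both prenatal groups by more than 1 on the log2 scale, 827 rising and 730 falling, and the score of a library is their mean log2 CPM with the sign of the falling genes turned round. Scores after LPS were 1.51, 1.08, 0.95, 1.32, 1.15 and 0.19 in MIA_CON_LPS replicates 1 to 6, against -0.66, -0.69, -0.71 and -0.64 in MIA_CON_SAL. They were 1.44, 0.91, 1.05 and 1.19 in CON_CON_LPS replicates 1, 2, 4 and 5, against -0.67, -0.74, -0.75 and -0.72 in CON_CON_SAL. LPS and saline libraries did not overlap in either arm. Replicate 6 was the lowest LPS library, and the other 5 MIA_CON_LPS libraries overlapped CON_CON_LPS.

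The response was 1.71 in MIA:CON and 1.87 in CON:CON, a difference of -0.16 that an exact permutation test of the prenatal label within injection did not separate from 0 (p = 0.604, two-sided, 14700 relabelings). Without MIA_CON_LPS replicate 6 the response was 1.88 in MIA:CON and 1.87 in CON:CON, a difference of 0.01 (exact permutation p = 0.959). The rising genes alone gave a difference of -0.20 (exact permutation p = 0.169), and -0.11 without replicate 6 (p = 0.241). The falling genes alone gave -0.11 (exact permutation p = 0.804), and 0.14 without replicate 6 (p = 0.629). Replicate 6 had a mean of 4.39 log2 CPM over the rising genes and 4.56 over the falling genes, with the other MIA_CON_LPS libraries at 4.81 to 5.09 and 2.44 to 3.55.

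**Figure D1:**
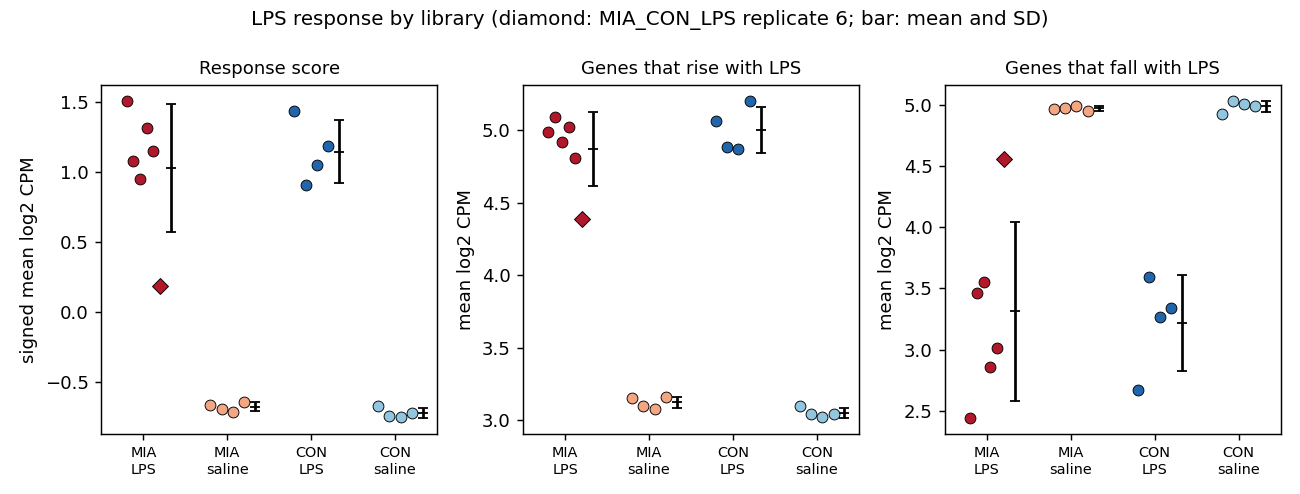
LPS response score (left, signed mean log2 CPM) and mean log2 CPM of the 827 rising (middle) and 730 falling genes (right) in each of the 18 libraries, with the mean and SD of each group as a bar and MIA_CON_LPS replicate 6 as a diamond. The LPS libraries of both prenatal groups lie apart from the saline libraries, and the diamond lies between them at a score of 0.19.

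The same 1557 genes were followed one by one in the 2 arms. In MIA:CON 1299 of them were called in their own direction and in CON:CON 1348, and 1556 had that sign in each arm. Their median change, signed by direction, was 1.5 in MIA:CON and 1.72 in CON:CON, the median difference was -0.24, and 1079 genes (69.3%) had the smaller change in MIA:CON. Without replicate 6 the medians were 1.75 and 1.72, the median difference was -0.01 and 791 genes (50.8%) had the smaller change in MIA:CON. Of these genes 51 (3.28%) had an unadjusted p under 0.05 for the difference of effects, and 43 (2.76%) without replicate 6, near the shares over all genes. Across these genes, which are not independent replicates, the 2 sets of changes had a Pearson correlation of 0.95 both with and without replicate 6.

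**Figure D2:**
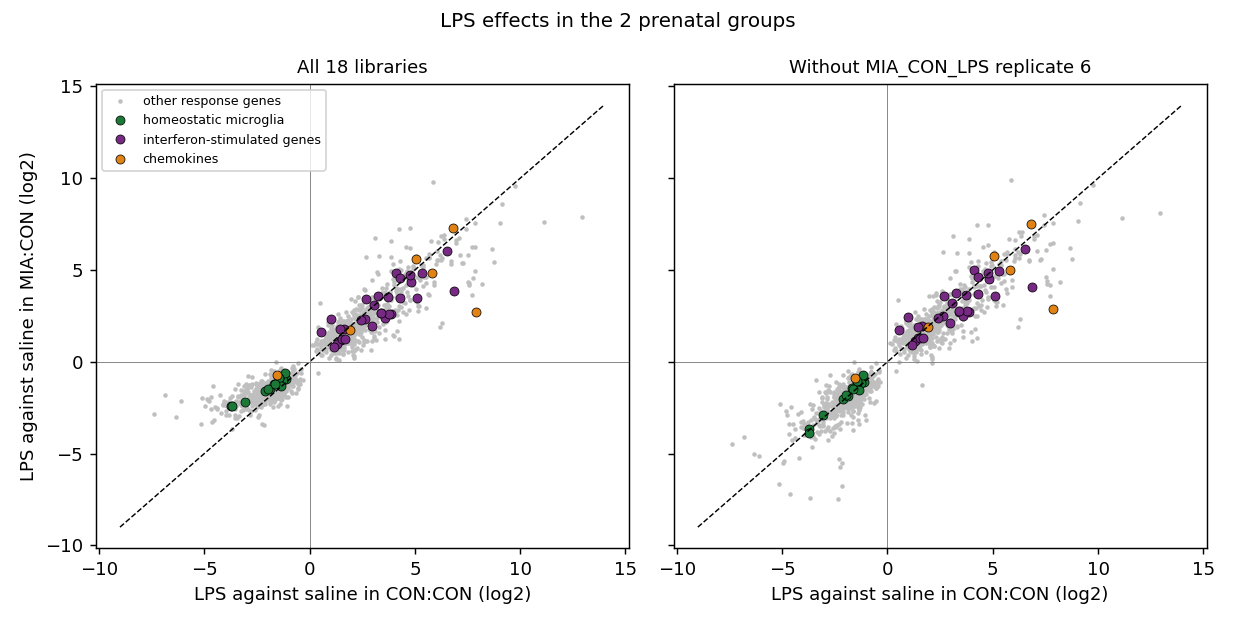
Change after LPS against saline (log2) in MIA:CON (vertical) and CON:CON (horizontal) for the 1557 genes chosen in the PLX libraries, from all 18 libraries (left) and without MIA_CON_LPS replicate 6 (right). Each point is a gene, coloured by 3 gene lists, and the dashed line marks equal change. The falling genes lie above the line on the left and around it on the right.

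The counts of list members called for LPS below stand against the shares over all genes tested. These were 14.5% higher and 10.9% lower in MIA:CON, and 13.7% higher and 9.84% lower in CON:CON. The homeostatic genes depended on MIA_CON_LPS replicate 6. Of 18 homeostatic microglia genes tested, 12 fell in MIA:CON and 14 in CON:CON, and 14 and 15 without replicate 6. The median change was -1.08 in MIA:CON and -1.44 in CON:CON. The median difference of effects was 0.45 with 17 of 18 above 0, and 0.10 with 14 of 18 above 0 without replicate 6, against medians of -0.01 and -0.03 over all genes tested. No member was called for the difference. Over all single libraries left out, the median difference lay between 0.10 without MIA_CON_LPS replicate 6 and 0.71 without CON_CON_LPS replicate 2. With both libraries marked for exclusion included it was turned to -0.13, with 5 of 18 above 0, and CON_CON_LPS replicate 3, 1 of those libraries, had 2220 CPM of P2ry12. With a replicate block, which in effect also sets MIA_CON_LPS replicate 6 aside, it was 0.15.

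P2ry12 (ENSMUSG00000036353.13), which encodes the purinergic receptor of the sort gate, had 229, 447, 375, 366, 373 and 1800 CPM in MIA_CON_LPS replicates 1 to 6 and 2890, 2640, 2760 and 2680 CPM in MIA_CON_SAL. It had 175, 387, 243 and 321 CPM in CON_CON_LPS and 2200, 2630, 2050 and 2520 CPM in CON_CON_SAL. Replicate 6 was over 4 times any other MIA_CON_LPS library but below every saline library, and the other LPS libraries of both arms overlapped. P2ry12 fell by 2.19 on the log2 scale in MIA:CON (edgeR adjusted p = 6.98e-06) and by 3.08 in CON:CON (adjusted p = 3.65e-07). The difference of effects was 0.89 (95% interval -0.09 to 1.86), and 0.18 (-0.41 to 0.76) without replicate 6.

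Gpr34, a lysophospholipid receptor gene, had 2.26, 102, 58.2, 18.5, 23.4 and 475 CPM in MIA_CON_LPS, against 571 to 659 CPM in MIA_CON_SAL. It had 6.39, 87.7, 31.7 and 36.8 CPM in CON_CON_LPS, against 428 to 588 CPM in CON_CON_SAL. Here replicate 6 alone among the LPS libraries reached the range of CON_CON_SAL, and the estimate changed sign with it, at 1.26 (-0.97 to 3.49) with replicate 6 and -0.16 (-1.97 to 1.64) without it. The fructose transporter gene Slc2a5 had 4.35 to 22 CPM in MIA_CON_LPS replicates 1 to 5, 105 CPM in replicate 6 and 136 to 159 CPM in MIA_CON_SAL, against 2.93 to 31.8 CPM in CON_CON_LPS and 158 to 190 CPM in CON_CON_SAL. Its difference of effects was 1.30 (-0.71 to 3.31), and 0.05 (-1.65 to 1.75) without replicate 6. Siglech, a sialic acid receptor gene, had 237 to 322 CPM in MIA_CON_LPS replicates 1 to 5 and 774 CPM in replicate 6, against 191 to 289 CPM in CON_CON_LPS, and its difference of effects was 0.49 (-0.23 to 1.20), or 0.14 (-0.42 to 0.70) without replicate 6. Thus in these 3 genes as in P2ry12, the 5 other MIA_CON_LPS libraries overlapped CON_CON_LPS.

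Tmem119, a microglial membrane protein gene, was also highest in replicate 6 but spread more widely. It had 81.2, 523, 407, 181, 235 and 630 CPM in MIA_CON_LPS and 721 to 860 CPM in MIA_CON_SAL, against 75.1, 533, 166 and 308 CPM in CON_CON_LPS and 724 to 931 CPM in CON_CON_SAL. All LPS libraries were below saline, and the difference was 0.41 (-0.86 to 1.68), and 0.16 (-1.09 to 1.42) without replicate 6.

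Not every microglial gene followed this pattern. Cx3cr1, the fractalkine receptor gene, had 113, 1180, 1340, 137, 187 and 1290 CPM in MIA_CON_LPS and 1590 to 1940 CPM in MIA_CON_SAL. It had 100, 1490, 283 and 998 CPM in CON_CON_LPS and 1640 to 1890 CPM in CON_CON_SAL. Both LPS groups thus held low and near-saline libraries side by side, and the difference of effects was 0.04 (-1.78 to 1.86), the largest p of its list. The Fc receptor-like gene Fcrls had 0.54 (-0.16 to 1.24), and 0.42 without replicate 6. The colony stimulating factor receptor gene Csf1r (0.13, -0.31 to 0.58), the CD11b gene Itgam (0.00, -0.71 to 0.71) and the CD45 gene Ptprc (-0.04, -0.58 to 0.50) had estimates near 0, and none of these 3 was called for LPS in either arm with all 18 libraries. Csf1r was close to a call in CON:CON, at -0.43 (edgeR adjusted p = 0.0505), and was called there without replicate 6 (adjusted p = 0.0484) and without any 1 of 6 other libraries, among them CON_CON_LPS replicates 2 and 5. In such sorted bulk samples, fewer cells of a kind and less RNA per cell cannot be told apart.

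**Figure D3:**
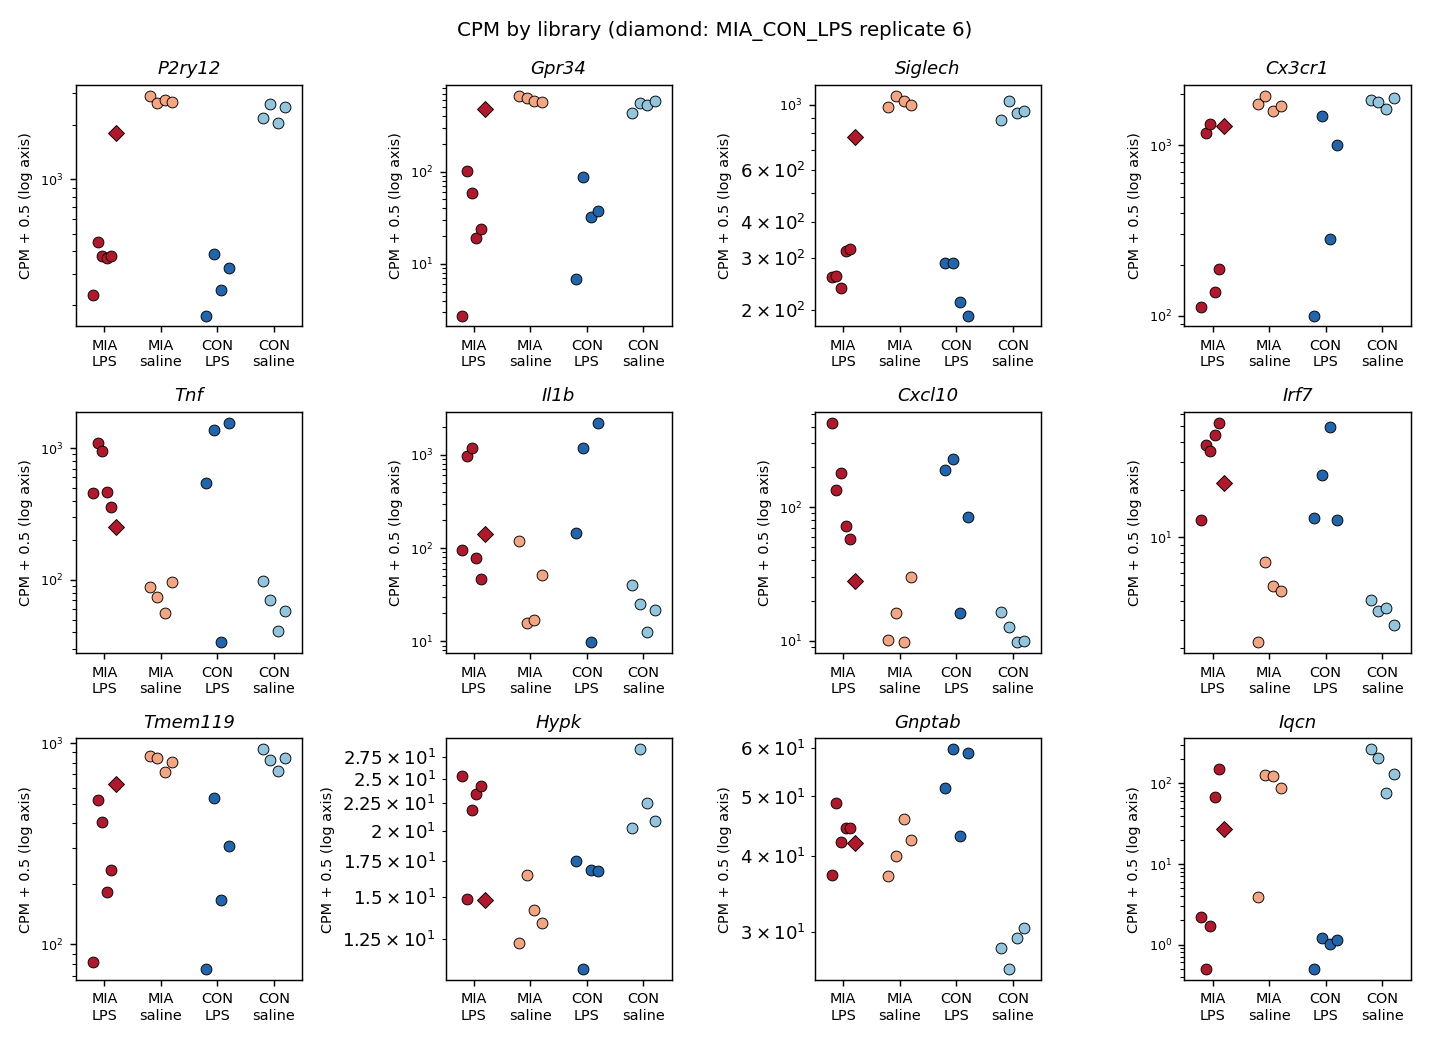
CPM plus 0.5 (log axis) of 12 genes in each of the 18 libraries, by prenatal term and injection, with MIA_CON_LPS replicate 6 as a diamond. The diamond sits near the saline libraries for P2ry12 (1800 CPM), Gpr34 and Siglech and among the other LPS libraries for Il1b, Irf7 and Gnptab.

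Genes that sense LPS or restrain its signal were about equally called in the 2 arms. Of 19 tested, 8 rose in MIA:CON, and 9 rose and 1 fell in CON:CON, with a median difference of effects of -0.11 (-0.08 without replicate 6). Tlr4, the LPS receptor gene, had 35.0, 194, 161, 41.4, 51.7 and 120 CPM in MIA_CON_LPS and 101 to 131 CPM in MIA_CON_SAL. It had 38.3, 140, 152 and 110 CPM in CON_CON_LPS and 111 to 124 CPM in CON_CON_SAL. The difference was -0.11 (-1.20 to 0.98), and -0.16 (-1.29 to 0.97) without replicate 6. The saline libraries were tight and the LPS libraries lay on both sides of them. Ticam1, which encodes the TRIF adaptor of the interferon branch, had -0.39 (-0.91 to 0.14), and Tollip, an inhibitor of Toll-like receptor signalling, -0.01 (-0.66 to 0.64). Socs1, an inhibitor of cytokine signalling, had the smallest unadjusted p of the list (3.0, 0.56 to 5.43), at 0.282 to 4.10 CPM in MIA_CON_LPS and 0.433 to 4.42 CPM in MIA_CON_SAL, against 0 to 1.26 CPM in CON_CON_LPS and 0.929 to 5.58 CPM in CON_CON_SAL.

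Interferon-stimulated genes rose in both arms. Of 36 tested, 35 rose in MIA:CON and 33 in CON:CON, with median changes of 2.59 and 3.16. The median difference of effects was -0.31, and -0.20 without replicate 6, with 12 and 13 members above 0. With single libraries left out it lay between -0.52 without CON_CON_LPS replicate 5 and 0.02 without CON_CON_LPS replicate 4. By limma voom with quality weights its sign was also turned, to 0.22 with 21 of 36 above 0. Members thus lay on both sides of 0, between -3.01 and 2.94, and 2 had an unadjusted p under 0.05.

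Irf7, a regulator that amplifies the interferon response, had 12.4, 37.6, 34.4, 43.5, 52.1 and 21.5 CPM in MIA_CON_LPS and 1.69 to 6.50 CPM in MIA_CON_SAL. It had 12.8, 24.1, 49.3 and 12.4 CPM in CON_CON_LPS and 2.29 to 3.53 CPM in CON_CON_SAL. LPS and saline did not overlap, and the 2 LPS groups did. The difference of effects was 0.04 (-1.27 to 1.35), and 0.16 (-1.06 to 1.38) without replicate 6.

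Irf9, a DNA-binding factor of the interferon response, was among the 2 members with the smallest p. It had 49.2 to 65.9 CPM in MIA_CON_LPS and 32.9 to 46.0 CPM in MIA_CON_SAL, against 72.9, 66.6, 90.4 and 36.8 CPM in CON_CON_LPS and 24.6 to 33.6 CPM in CON_CON_SAL. The difference was -0.61 (-1.11 to -0.11, edgeR adjusted p = 1), and -0.55 (-1.05 to -0.04) without replicate 6. Mx2, a gene of the antiviral Mx GTPases that is annotated as a polymorphic pseudogene, differed the other way. The difference was 1.07 (0.01 to 2.14, edgeR adjusted p = 1), and 1.19 (0.13 to 2.26) without replicate 6. It had 14.7 to 42.5 CPM in MIA_CON_LPS and 4.11 to 10.7 CPM in MIA_CON_SAL, against 5.53 to 25.1 CPM in CON_CON_LPS and 10.4 to 15.7 CPM in CON_CON_SAL.

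Inflammatory cytokine and NF-kB target genes were uneven between libraries. Of 23 tested, 13 rose and 1 fell in MIA:CON, and 17 rose and 1 fell in CON:CON. The count in MIA:CON was 8 without any 1 of MIA_CON_SAL replicates 2, 3 and 4. The median difference of effects was -0.33, -0.19 without MIA_CON_LPS replicate 6 and -0.67 without CON_CON_LPS replicate 4, with 6 of 23 members above 0 both with and without MIA_CON_LPS replicate 6.

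Tnf, an inflammatory cytokine gene, had 456, 1100, 946, 462, 356 and 254 CPM in MIA_CON_LPS and 55.3 to 95.3 CPM in MIA_CON_SAL. It had 543, 1370, 33.2 and 1560 CPM in CON_CON_LPS replicates 1, 2, 4 and 5 and 40.3 to 97.6 CPM in CON_CON_SAL. CON_CON_LPS replicate 4 was below every saline library, and the MIA_CON_LPS libraries lay inside the spread of CON_CON_LPS. Tnf rose by 2.95 in MIA:CON and by 3.70 in CON:CON (edgeR adjusted p = 0.00483 and 0.0012). The difference was -0.75 (-2.78 to 1.28), and -0.59 (-2.65 to 1.48) without MIA_CON_LPS replicate 6.

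Il1b, the precursor of interleukin 1 beta, had 964 and 1190 CPM in MIA_CON_LPS replicates 2 and 3 and 45.9 to 140 CPM in the other 4, against 15.2 to 118 CPM in MIA_CON_SAL. It had 1170 and 2200 CPM in CON_CON_LPS replicates 2 and 5 and 145 and 9.31 CPM in replicates 1 and 4, against 12.1 to 39.7 CPM in CON_CON_SAL. Libraries of high Il1b occurred in both prenatal groups. The difference was -2.08 (-5.29 to 1.12), and -1.90 (-5.20 to 1.39) without replicate 6. Il1b was not called for LPS in MIA:CON (edgeR adjusted p = 0.0566). It was called there without replicate 6 (edgeR adjusted p = 0.043), and also without CON_CON_LPS replicate 4, MIA_CON_LPS replicate 5 or MIA_CON_SAL replicate 1. Il6, another cytokine gene, had 10.7 to 36.3 CPM in MIA_CON_LPS and 3.20 to 7.57 CPM in MIA_CON_SAL, against 0.755 to 67.7 CPM in CON_CON_LPS and 3.29 to 9.60 CPM in CON_CON_SAL. Its difference was 0.02 (-2.14 to 2.18), and -0.11 (-2.40 to 2.19) without replicate 6. Icam1, an adhesion molecule gene, had -0.97 (-2.14 to 0.20).

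Chemokine genes rose in 12 of 14 members in MIA:CON, and in CON:CON 11 rose and 1 fell. Without MIA_CON_SAL replicate 3 the count in MIA:CON was 7. Their median difference of effects was -0.19, and 0.00 without MIA_CON_LPS replicate 6. It lay between -0.51 without CON_CON_LPS replicate 4 and 0.09 without MIA_CON_SAL replicate 1, and was 0.01 without CON_CON_LPS replicate 2 and 0.08 with a replicate block, so its sign was not stable. Cxcl10, whose promoter is shown above, had 428, 135, 179, 71.8, 57.0 and 27.4 CPM in MIA_CON_LPS and 9.27 to 29.3 CPM in MIA_CON_SAL. It had 191, 228, 15.6 and 83.9 CPM in CON_CON_LPS and 9.29 to 16 CPM in CON_CON_SAL. The lowest LPS library in each arm, which in MIA:CON was replicate 6, reached its saline range. The other MIA_CON_LPS libraries lay above theirs. The difference was -0.19 (-2.36 to 1.98), and 0.03 (-2.16 to 2.23) without replicate 6.

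Ccl5, a chemokine gene for T cells and monocytes, had 272 CPM in MIA_CON_LPS replicate 1 and 17.9 to 85.3 CPM in the other 5, against 0.242 to 1.26 CPM in MIA_CON_SAL. It had 200, 11.9, 18.4 and 137 CPM in CON_CON_LPS and 0.254 to 1.86 CPM in CON_CON_SAL. The difference was 0.46 (-3.72 to 4.64), and 0.68 (-3.47 to 4.84) without MIA_CON_LPS replicate 6. Ccl2, a monocyte chemokine gene, had 4.51 to 317 CPM in MIA_CON_LPS and 9.09 to 26.3 CPM in MIA_CON_SAL, against 13.6 to 197 CPM in CON_CON_LPS and 8.67 to 22.8 CPM in CON_CON_SAL. Its difference was -0.04 (-2.30 to 2.23), and 0.16 (-2.13 to 2.45) without MIA_CON_LPS replicate 6. LPS and saline overlapped for Ccl2 in both arms, and its call was lost without MIA_CON_LPS replicate 3 or any 1 of MIA_CON_SAL replicates 2 to 4 in MIA:CON, and without CON_CON_LPS replicate 2 or 5 or any 1 of CON_CON_SAL replicates 2 to 4 in CON:CON. Ccl6 fell in CON:CON (-1.55) and was not called in MIA:CON (-0.74), with a difference of 0.81 (-0.18 to 1.80). Without MIA_CON_LPS replicate 2 or 6 it was also called in MIA:CON.

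Acute-phase and secreted defence genes rose in 10 of 11 members in each arm, with a median difference of -0.53 (-0.48 without replicate 6). Of the 11 members, 5 had an interval, which held 0, and none had an unadjusted p under 0.05. The median also takes in members with a group at 0 counts, whose fitted differences have no usable interval. That median was -0.18 without CON_CON_LPS replicate 5 or MIA_CON_SAL replicate 1, -0.89 without MIA_CON_SAL replicate 3, and -1.42 over the 8 members left at a minimum count of 30. C3, the central complement component, rose by 3.03 in MIA:CON and 4.27 in CON:CON, with a difference of -1.24 (-2.75 to 0.27). Saa3 had 308, 392, 256, 140, 56.6 and 55.4 CPM in MIA_CON_LPS, against 2.66 CPM in MIA_CON_SAL replicate 1 and 0 in the other 3. It had 512, 192, 54.9 and 434 CPM in CON_CON_LPS and 0 in all 4 CON_CON_SAL libraries, so its fitted difference has no usable interval. Lcn2, a lipocalin gene, had 23.8 to 134 CPM in MIA_CON_LPS and 0 to 3.14 CPM in MIA_CON_SAL, against 15.3 to 174 CPM in CON_CON_LPS and 0 to 0.763 CPM in CON_CON_SAL, with a difference of -1.61 (-6.17 to 2.95). LPS levels of both genes overlapped between the prenatal groups.

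Genes of uptake and antigen display had small differences. Of 21 phagocytic, complement and Fc receptor genes, 11 rose and 3 fell in MIA:CON, and 10 rose and 1 fell in CON:CON, with 4 falling there without CON_CON_LPS replicate 2. Their median difference was 0.13 (0.17 without MIA_CON_LPS replicate 6). Trem2, a lipid receptor gene of microglia, had 72.6 to 191 CPM in MIA_CON_LPS replicates 1 to 5, 262 CPM in replicate 6 and 234 to 303 CPM in MIA_CON_SAL, against 71.9 to 134 CPM in CON_CON_LPS and 227 to 313 CPM in CON_CON_SAL. Replicate 6 alone among the LPS libraries lay in the saline range. Trem2 fell by 0.88 in MIA:CON and by 1.45 in CON:CON, with a difference of 0.57 (-0.20 to 1.34), and 0.31 (-0.39 to 1.01) without replicate 6, where the fall in MIA:CON was by 1.14. C1qc, a chain of C1q, had 0.46 (-0.27 to 1.19). Of 15 MHC class I and antigen processing genes, 8 rose in MIA:CON and 7 in CON:CON, with a median difference of -0.03 (0.05 without replicate 6). B2m, the class I light chain, had 0.30 (-0.20 to 0.80), and H2-D1, a class I heavy chain, -0.03 (-0.69 to 0.64). Of 7 MHC class II genes, 2 rose in MIA:CON and 1 in CON:CON, against 14.5% and 13.7% of all genes tested. Their median difference was 0.29 (0.33 without replicate 6), and the invariant chain gene Cd74 had 0.13 (-0.81 to 1.08). Reads of class I genes may be split between near-identical copies.

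Of 18 genes of the disease-associated microglial state, 7 rose and 2 fell in MIA:CON, and 8 rose and 2 fell in CON:CON, with a median difference of -0.23 (-0.12 without replicate 6). Csf1, a growth factor gene for macrophages, had -1.32 (-3.14 to 0.50). Lgals3, which encodes galectin 3, had the smallest p of the list at -2.63 (-5.00 to -0.27), and -2.87 (-5.28 to -0.46) without replicate 6, at a low mean of 1.67 log2 CPM.

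Ribosomal protein genes mostly had a larger LPS change in MIA:CON, though none passed the test and the share moved with 1 library. Of 30 cytosolic ribosomal protein genes, 29 rose in MIA:CON and 13 in CON:CON, with median changes of 0.99 and 0.56. All 30 had a difference of effects above 0 with all 18 libraries and also without replicate 6, against 48.4% and 46.4% of all genes tested, and the medians were 0.41 and 0.44. None was called for the difference, and every 95% interval held 0. Only 18 of 30 were above 0 without CON_CON_LPS replicate 4, 26 of 30 by limma voom with quality weights (median 0.16), and 27 to 30 without any other single library. The highest was Rplp1, a stalk protein gene, at 0.85 (-0.33 to 2.03), and Rpl35 stood at 0.03 (-0.86 to 0.92). Single libraries moved these counts. In MIA:CON, 20 rose without MIA_CON_SAL replicate 4. Without CON_CON_LPS replicate 4, 23 rose in CON:CON and the median difference was 0.12. Without CON_CON_LPS replicate 5, 4 rose and the median was 0.67. The count was 6 without CON_CON_LPS replicate 2 or CON_CON_SAL replicate 4, and 4 without CON_CON_SAL replicate 3. Mean mitochondrial ribosomal RNA was also highest in MIA_CON_LPS, as given above. In CON_CON_LPS it took 12, 16.6, 6.14 and 15.7% of counts in replicates 1, 2, 4 and 5. Replicate 4 had the lowest value of all libraries, and also the highest scaling factor (1.34). The part of this RNA and of that library's composition was not tested.

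Nuclear genes of oxidative phosphorylation rose in 12 of 24 members in MIA:CON and 7 in CON:CON, with a median difference of 0.01 (0.10 without replicate 6). These counts moved with 1 library, to 5 in MIA:CON without MIA_CON_SAL replicate 4, and in CON:CON to 15 without CON_CON_LPS replicate 4, 2 without CON_CON_LPS replicate 5, and 4 without CON_CON_LPS replicate 2 or CON_CON_SAL replicate 3 or 4. Of 18 glycolysis genes, 7 rose in each arm, with 1 falling in MIA:CON and 2 in CON:CON, and the median difference was 0.07 (0.08 without replicate 6). In CON:CON the rising count was 4 without CON_CON_LPS replicate 2 or 5. Pfkfb3, which makes an activator of glycolysis, rose by 2.77 in MIA:CON and 3.42 in CON:CON, with a difference of -0.66 (-2.07 to 0.76). Cholesterol synthesis genes rose in 5 of 16 members in MIA:CON and 7 in CON:CON, with a median difference of -0.18 (-0.22 without replicate 6). The MIA:CON count was 2 without MIA_CON_SAL replicate 3 and was 3 when replicate 2 or 4 of MIA_CON_SAL, or replicate 1 or 4 of MIA_CON_LPS, was left out. Mvk, mevalonate kinase, had the smallest p there, at -1.45 (-2.71 to -0.19).

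Stress and cycle genes gave no call for the difference either. The counts of rising members stand against 14.5% of all genes in MIA:CON and 13.7% in CON:CON. For the unfolded protein and cell cycle lists they were too few to show whether the list as such responded. Immediate early and dissociation stress genes rose in 7 of 26 members in MIA:CON and 5 in CON:CON, with a median difference of -0.09 (-0.14 without replicate 6), and the early gene Btg2 had -0.07 (-1.23 to 1.10). Unfolded protein response genes rose in 3 of 14 members in each arm, with a median of -0.04 (0.00 without replicate 6). Atf4, a transcription factor gene of that response, had 0.56 (-0.01 to 1.13), and 0.65 (0.10 to 1.20) without replicate 6, also uncalled. Glucocorticoid-responsive genes rose in 6 of 12 members in MIA:CON and 9 in CON:CON, with a median of -0.48 (-0.42 without replicate 6) and 0.34 without MIA_CON_SAL replicate 1. Tsc22d3, a glucocorticoid-induced leucine zipper gene, had -0.83 (-1.81 to 0.16). Of 14 cell cycle genes 1 rose in each arm, with a median of 0.04 (0.06 without replicate 6).

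**Figure D4:**
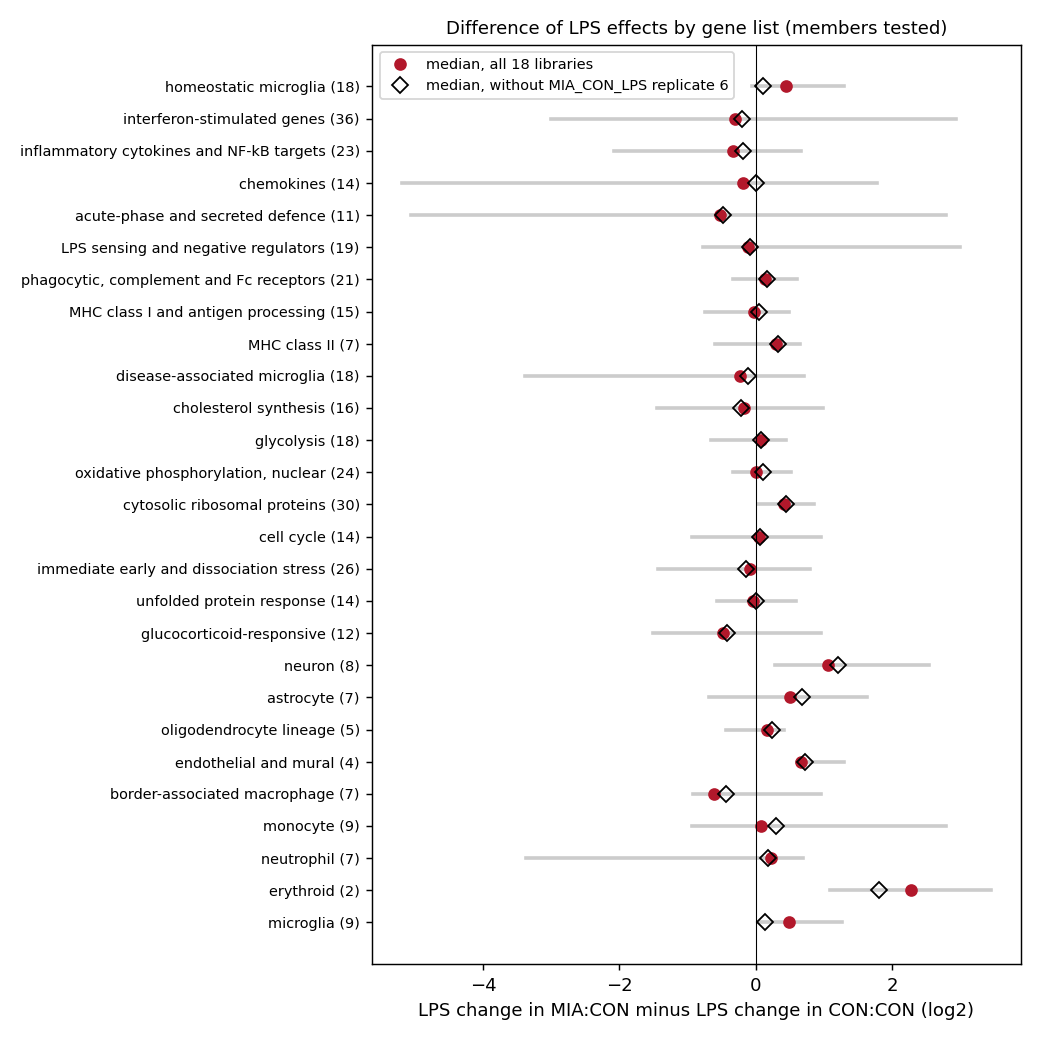
Difference of LPS effects (MIA:CON minus CON:CON, log2) for each gene list, with the number of members tested. The filled circle is the median over all 18 libraries, the open diamond the median without MIA_CON_LPS replicate 6, and the grey line the range of members in all 18 libraries. The homeostatic median moves from 0.45 to 0.10 when replicate 6 is left out, and the ribosomal range with all 18 libraries lies above 0.

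Markers of other cells were mostly low, with exceptions. The astrocyte transporter gene Slc1a3 reached 217 CPM after LPS and 689 CPM after saline, the border macrophage marker Stab1 703 CPM after LPS and 338 CPM after saline, and the neutrophil marker Csf3r 438 CPM after LPS and 386 CPM after saline. The next highest members of these lists after saline were Slc1a2 (133 CPM), Mrc1 (47.7 CPM), and S100a8 and S100a9 (3.14 CPM each). After saline, the summed astrocyte and neutrophil levels below thus rest largely on a few genes. Neuronal markers had 8 of 12 members tested, 0 called for LPS in either arm, and a median difference of effects of 1.06 (1.21 without replicate 6), with all 8 above 0. Their summed level was 19.2 to 93.5 CPM in MIA_CON_LPS and 35.0 to 66.7 in MIA_CON_SAL, against 10.6 to 41.6 in CON_CON_LPS and 35.3 to 55.2 in CON_CON_SAL. Syt1, a synaptic vesicle gene, had the smallest p (2.54, 0.31 to 4.78). Astrocyte markers (7 of 8 tested) had a median difference of 0.50, and 0.68 without MIA_CON_LPS replicate 6. That median was 0.30 without MIA_CON_SAL replicate 1 and 1.47 without CON_CON_LPS replicate 1. The astrocyte markers summed to 186 to 337 CPM in MIA_CON_LPS and 250 to 744 in MIA_CON_SAL, against 89.1 to 206 in CON_CON_LPS and 162 to 296 in CON_CON_SAL. Oligodendrocyte markers (5 of 10 tested) had a median of 0.16, and 0.24 without MIA_CON_LPS replicate 6. That median was -0.03 without CON_CON_LPS replicate 4 and 0.77 without CON_CON_LPS replicate 2. Endothelial and mural markers (4 of 10 tested) had a median of 0.66, and 0.72 without MIA_CON_LPS replicate 6. Their median was 0.46 without CON_CON_LPS replicate 4 and 1.32 without CON_CON_LPS replicate 2.

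Among blood and border cells, 8 of 9 monocyte markers tested rose in MIA:CON and 5 in CON:CON, with a median difference of 0.07 (0.29 without replicate 6). The counts were 5 without MIA_CON_LPS replicate 2 or MIA_CON_SAL replicate 3, and 3 without CON_CON_LPS replicate 5 or CON_CON_SAL replicate 1, 2 or 3. Their summed level was 57.5 to 227 CPM in MIA_CON_LPS and 7.80 to 17.2 in MIA_CON_SAL, against 69.7 to 246 in CON_CON_LPS and 11.5 to 14.8 in CON_CON_SAL. Of 7 neutrophil markers tested (of 11), 5 rose in MIA:CON and 3 in CON:CON, with a median difference of 0.23 (0.18 without MIA_CON_LPS replicate 6). The MIA:CON count was 1 without MIA_CON_SAL replicate 3 or 4 and 3 without MIA_CON_LPS replicate 3 or MIA_CON_SAL replicate 1 or 2, and the CON:CON count was 5 without CON_CON_LPS replicate 4. Their summed level was 77.8 to 530 CPM in MIA_CON_LPS and 337 to 378 in MIA_CON_SAL, against 53.2 to 382 in CON_CON_LPS and 337 to 386 in CON_CON_SAL, most of it in saline from Csf3r, with Elane at 0 in all 18 libraries and Ly6g above 0 in 2. Border-associated macrophage markers (7 of 9 tested) had a median difference of -0.62, and -0.44 without MIA_CON_LPS replicate 6. That median was -1.62 without MIA_CON_LPS replicate 2 and 1.37 without CON_CON_LPS replicate 2. Of 11 lymphocyte markers none had enough counts to be tested and 4 were at 0 throughout. Of 6 erythroid markers 2 were tested and 0 called. The part of these markers in the differences of LPS effects was not tested.

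The genes with the smallest p for the difference of effects, among those with a mean of at least 4 log2 CPM, are given as the nearest to a call, and none was called. Hypk, which encodes a chaperone partner of the N-terminal acetylation machinery, had 24.8, 14.4, 21.4, 22.9, 23.8 and 14.3 CPM in MIA_CON_LPS and 11.8 to 16 CPM in MIA_CON_SAL. It had 17, 10.5, 16.4 and 16.3 CPM in CON_CON_LPS and 19.7 to 27.9 CPM in CON_CON_SAL. LPS libraries were mostly above saline in MIA:CON, and all below saline in CON:CON. The difference was 1.19 (0.55 to 1.82, edgeR adjusted p = 1), and 1.28 (0.66 to 1.91, edgeR adjusted p = 0.642) without replicate 6. The saline groups did not overlap, with MIA_CON_SAL below CON_CON_SAL.

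Gnptab, a subunit of the enzyme that tags lysosomal proteins with mannose phosphate, had the smallest p below 0. It had 36.7 to 48.3 CPM in MIA_CON_LPS and 36.5 to 45.4 CPM in MIA_CON_SAL, against 51.1, 59.2, 42.5 and 58.5 CPM in CON_CON_LPS and 25.6 to 30.0 CPM in CON_CON_SAL. LPS and saline overlapped in MIA:CON and not in CON:CON. The difference was -0.81 (-1.28 to -0.34, edgeR adjusted p = 1), and -0.79 without replicate 6. Leo1, a subunit of the PAF1 transcription elongation complex, had 11.6 to 29.9 CPM in MIA_CON_LPS and 16.6 to 23.4 CPM in MIA_CON_SAL, against 25.4 to 38.7 CPM in CON_CON_LPS and 15.1 to 26.1 CPM in CON_CON_SAL, with a difference of -0.93 (-1.50 to -0.37). Myo1g, a myosin gene of blood-lineage cells, had 9.44 to 43.7 CPM in MIA_CON_LPS and 22.4 to 39.4 CPM in MIA_CON_SAL, against 46.1, 44.4, 46.1 and 120 CPM in CON_CON_LPS and 25.3 to 34.4 CPM in CON_CON_SAL, with a difference of -1.37 (-2.26 to -0.49).

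Gadd45g, a stress-responsive growth arrest gene, had 7.33 to 58.7 CPM in MIA_CON_LPS and 12.6 to 25.1 CPM in MIA_CON_SAL, against 5.03 to 9.43 CPM in CON_CON_LPS and 12.1 to 37.1 CPM in CON_CON_SAL, and differed by 2.43 (0.92 to 3.94). Iqcn was split between libraries and not only between groups. It had 1.69, 0, 1.21, 68.2, 150 and 26.8 CPM in MIA_CON_LPS and 3.38, 128, 125 and 86.5 CPM in MIA_CON_SAL, against 0 to 0.717 CPM in CON_CON_LPS and 76.5 to 264 CPM in CON_CON_SAL. Its difference of 7.42 (2.53 to 12.3) thus rests on which libraries were near 0. The other genes above 0 were Bbip1, Ier3ip1, Cln8, Zbtb7a and Slc5a3 (0.67 to 1.59), and the others below 0 were Stx6, Rbbp8, Mthfsl, Klc1 and Alkbh1 (-1.33 to -0.76). Without replicate 6, Sap18, Rnf187 and Irf2bpl entered the genes above 0, and Rspry1 and Ppip5k1 those below 0, also uncalled.

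**Figure D5:**
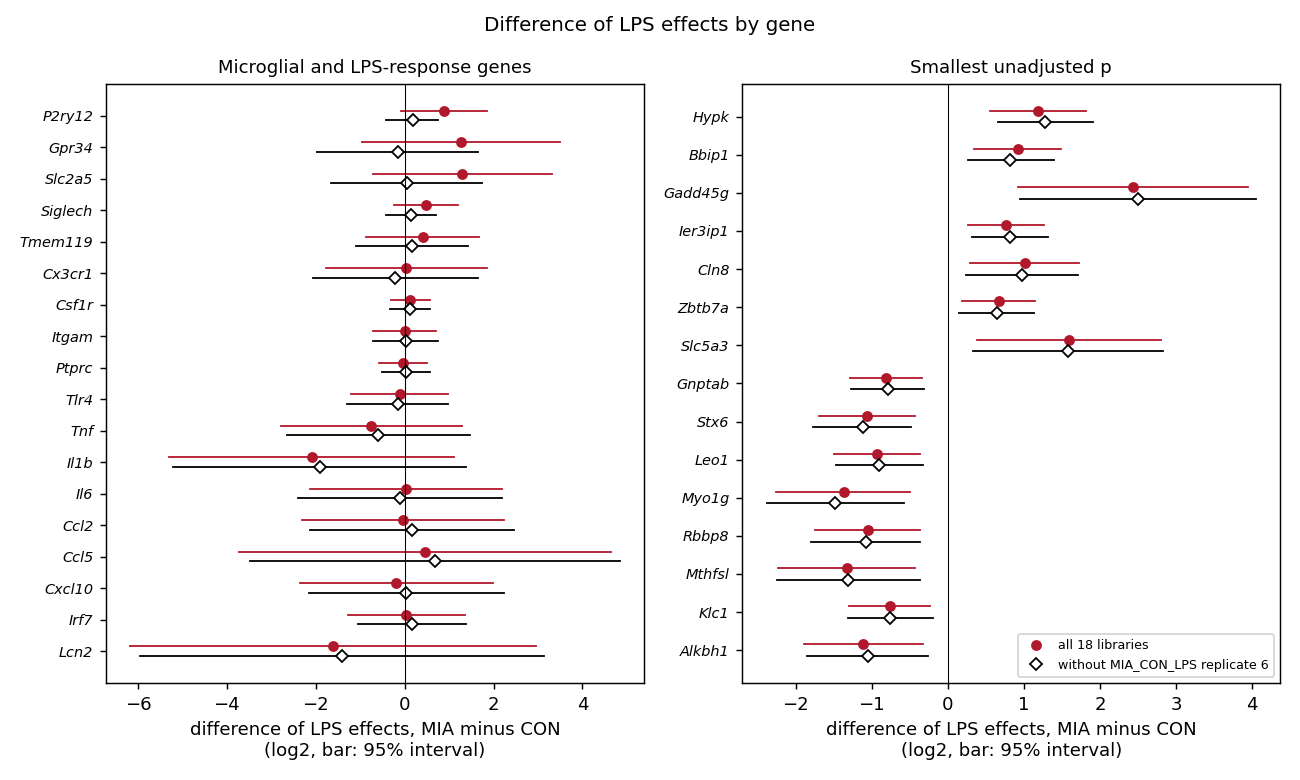
Difference of LPS effects (MIA:CON minus CON:CON, log2) with its 95% interval for microglial and LPS-response genes (left) and for the genes of smallest unadjusted p other than Iqcn (right), with all 18 libraries (filled) and without MIA_CON_LPS replicate 6 (open). P2ry12, Gpr34 and Slc2a5 move toward 0 when replicate 6 is left out, and the genes on the right move little.

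The difference of effects can also be read within each injection. After LPS, MIA:CON against CON:CON had 0 genes called by edgeR in either direction (0%). At an unadjusted p under 0.05 there were 1252 genes (9.33% of those tested), and 1396 (10.5%) without MIA_CON_LPS replicate 6. The smallest adjusted p was 0.246 with all 18 libraries. Without MIA_CON_LPS replicate 6, 1 gene, the predicted gene Gm38091, was lower (0.00749%), and without MIA_CON_LPS replicate 1 the 1 gene called was Leo1. DESeq2 called 7. After saline, MIA:CON against CON:CON had 0 genes called by edgeR (0%), with 159 genes (1.18%) at an unadjusted p under 0.05 and a smallest adjusted p of 0.841. By limma voom with quality weights 1 gene was called, Cox15. The share of small p was larger after LPS than after saline, with no gene called by edgeR in either. The fit used 1 spread per gene for all 8 groups, while LPS libraries spread more. The response score had an SD of 0.45 in MIA_CON_LPS and 0.22 in CON_CON_LPS, against 0.03 in MIA_CON_SAL and 0.04 in CON_CON_SAL. The 2 shares are therefore not comparable as prenatal effects, and the part of unequal spread was not tested. The genes named here were chosen after their values were seen.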

How the data were processed

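RNA was sequenced from striatal microglia, with complementary DNA made by linear amplification that keeps no strand, per the labels. The authors deposited 1 table of estimated counts (expected counts, not normalized), in which 14.71% of nonzero values are not whole. Per the submitters' processing notes, the tools included STAR, RSEM and DESeq2, with no version or role. The genome build is not given in the sources used here, nor is the annotation. Of 55487 gene identifiers, 55141 matched GENCODE release M21, which gave the symbols. Antisense and overlapping genes cannot be told apart without strand.

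Values were rounded and filtered by filterByExpr (minimum count 10, minimum total 15), and 1 mean per group was fitted to 37 libraries in 8 groups by edgeR 4.0.16 quasi-likelihood (TMM, robust, R 4.3.3). The 37 libraries leave out the 2 marked for exclusion. The difference of LPS effects and 4 simple contrasts were each adjusted across the 13420 genes tested (Benjamini-Hochberg). Intervals are 95%, unadjusted, and none is given where a group had no counts. Single-library CPM values use TMM over all 39 libraries, and log2 CPM a prior count of 2. The total counts per library set the depth, and p-values and intervals reflect spread between libraries.

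Alternatives were RLE size factors, no filter, a minimum count of 30, only the 18 libraries, both marked libraries included, a replicate block, DESeq2 1.42.0, limma 3.58.1 voom with quality weights, and each library left out. The fits were tested on simulated data. Named genes were the 8 on each side with the smallest p at a mean of at least 4 log2 CPM (with and without MIA_CON_LPS replicate 6), 3 per list (the 2 smallest p and the largest) and 20 fixed genes, predicted genes excepted. Values of some named genes are not reported here. The comparison, the 28 lists and the named genes were chosen with earlier results of these data known.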

Additional observations from a re-analysis of the deposited data

Results flagged for a closer look

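Dixon's criterion at 95% was applied to 108 groups of 4 or 6 libraries, for the LPS response score and 26 genes, and 10 had a library far from the others (9.26%). Chance flags about 1 in 20 groups, or 5.4 of these. Of the 10, 4 were MIA_CON_LPS replicate 6, with 1800 CPM of P2ry12, 475 of Gpr34, 105 of Slc2a5 and 774 of Siglech, each above the other libraries of its group. MIA_CON_LPS replicate 1 stood apart at 272 CPM of Ccl5 and 29.9 CPM of Leo1. MIA_CON_SAL replicate 1 was the high library for Saa3 (2.66 CPM) and Lcn2 (3.14 CPM). CON_CON_LPS replicate 2 was the low library for Hypk (10.5 CPM), and CON_CON_LPS replicate 5 the high one for Myo1g (120 CPM).

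The libraries marked for exclusion entered the group comparisons of the report only as a stated alternative, and both had an LPS response score above the highest score of the saline libraries, -0.64. CON_CON_LPS replicate 3 had -0.46, below every LPS library used. MIA_PLX_SAL replicate 1, labelled as saline, had 0.07.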

How the results depend on the processing

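The difference of LPS effects had 0 genes called in each direction under all 26 alternatives, with a smallest adjusted p of 0.419 (DESeq2). Counts of genes called for LPS in MIA:CON stayed within 1.5 times the reported 3403 (2542 to 4206), and those for LPS in CON:CON within 1.5 times 3162 (2133 to 3518). The labels do not say that equal replicate numbers mark a shared batch. Of 22 pairs of equal number, 3 deviated together with a correlation over 0.1 (-0.0968 to 0.64). The highest were the MIA_CON_LPS and CON_CON_LPS pairs of replicate 1 (0.64) and replicate 2 (0.424). Pairs of unequal number were not correlated as a reference, so these values cannot tell whether some numbers share a batch. With a replicate block, 3419 genes were called for LPS in MIA:CON, 2373 for LPS in CON:CON and 0 for the difference. Number 6 occurs only in MIA_CON_LPS, so the block in effect takes that library out of the contrasts and is no separate check on it. The block also moved the homeostatic median difference to 0.15 (0.45 without it), and the inflammatory genes that rose to 9 in MIA:CON and 8 in CON:CON (13 and 17 without it). After LPS, MIA:CON against CON:CON had 7 genes by DESeq2 (Has3, Leo1, Cep128, Iqcn and 3 predicted genes) and 0 to 1 with each library left out, and after saline 1 by voom with quality weights. The cause of these moves was not tested.

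The difference in response size, -0.16, was reversed to 0.16 with CON_CON_LPS replicate 3 included and to 0.01 without MIA_CON_LPS replicate 6, and ran from -0.25 to 0.01 over the libraries left out. For falling genes without replicate 6, an alternative chosen after seeing the data, it was 0.14. No exact permutation p of these was under 0.05. Of 2829 values of the difference of effects for 110 named genes, 222 changed sign, 40 moved by over 1 SE and 0 became calls. The sign of the median difference also changed with 1 library left out for phagocytic (-0.08 to 0.28), MHC class I (-0.06 to 0.22), disease-associated (-0.30 to 0.05), glycolysis (-0.14 to 0.24), oxidative phosphorylation (-0.16 to 0.22), cell cycle (-0.16 to 0.33), immediate early (-0.27 to 0.49), unfolded protein (-0.13 to 0.33), monocyte (-0.32 to 0.61), neutrophil (-0.28 to 0.69) and erythroid genes (-2.52 to 3.32). Depth limits genes of low counts most.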
